A study of Mus musculus with 13 samples.

Results

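Polycomb proteins keep developmental regulator genes silent in embryonic stem (ES) cells through a pair of chromatin-modifying complexes. Polycomb repressive complex 2 (PRC2) methylates histone H3 at lysine 27 with Ezh1 or Ezh2 as its enzyme, and Eed and Suz12 are needed for that activity. PRC1 attaches ubiquitin to histone H2A through Ring1 or Rnf2, and its Cbx or Pcgf subunit decides which form of the complex is made and how it reaches chromatin.

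The transcripts of 10 Polycomb subunits were followed here, chosen by gene symbol from the 24421 genes in each of 2 RNA-seq count tables. They comprise Ezh1, Ezh2, Eed, Suz12, Jarid2 and Mtf2 of PRC2, and Ring1, Rnf2, Cbx7 and Pcgf6 of PRC1. The cells were F1-2.1, a female mouse ES line from a CAST/Ei by 129/Sv/Jae cross, in which a doxycycline (dox) inducible transgene carries CTCF S224E. CTCF is the zinc-finger protein that anchors chromatin loops, and the glutamate in this mutant stands in for a phosphorylated serine. One transgenic clone was grown for 6 days with dox at 1 µg/mL (+dox) or without it (−dox), with 2 replicates per condition and 1 replicate of each condition in each table. All 4 cultures retained wild-type Ctcf and were grown on irradiated mouse embryonic fibroblast feeders in LIF and serum. Cells given dox but lacking the transgene were not analysed here, and effects of dox and of S224E cannot be told apart.

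Each library held between 22899107 and 30206085 counts, and 20044 genes had at least 1 count and were tested. Ctcf itself, at chr8:108160438-108206822 on the plus strand of mm9, was at 327 and 329 CPM (counts scaled to a common library total) with dox and at 295 and 304 CPM without it. Its log2 fold change was 0.13 with an adjusted p of 0.475 in edgeR's quasi-likelihood test, and reads of the transgene were not separated from endogenous reads in these counts. The 10 ES cell markers summed to 6215 and 6997 CPM with dox and to 5610 and 6039 CPM without it. Both +dox sums were higher, 8 of the 10 markers were above 0, and 0 passed in edgeR or DESeq2. At an unadjusted edgeR p under 0.05 there were 4 higher and 1 lower, against 17.8% of all genes. The part of these markers in the subunit values below was not tested. The 16 fibroblast markers summed to 1022 CPM in +dox replicate 1 against 466, 385 and 404 CPM in +dox replicate 2 and −dox replicates 1 and 2, so the first +dox library stood apart most. Yet 13 of the 16 were higher in both +dox libraries than in both −dox libraries, and 0 were lower in both. Groups did not overlap, in either direction, in 47% of all genes tested. The median log2 fold change of the 16 fibroblast markers was 1.49 in the replicate 1 table and 0.40 in the replicate 2 table. In edgeR and DESeq2 0 passed, with 12 higher and 0 lower at an unadjusted edgeR p under 0.05, against 17.8% of all genes. The part of this difference between conditions in the subunit values was not tested. Any subunit transcripts of the feeders are counted with those of the ES cells. In such bulk samples a smaller share of one cell type and less RNA per cell cannot be told apart.

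No subunit gene met the threshold of an adjusted p under 0.01 in edgeR, against 120 of the 20044 genes tested, or 0.599%. DESeq2 also called 0 of the 10, against 1.87% of all genes tested. At an unadjusted edgeR p under 0.05 the count was 2 of 10, Eed and Cbx7, against 17.8% of all genes, so the share among the subunits was near the background share. Their log2 fold changes of +dox over −dox ran from -0.22 for Suz12 to 0.27 for Cbx7 with a median of 0.01, which equals that of all genes tested at this rounding. The widest reach of any subunit's 95% confidence interval was from -0.45 to 0.50 on the log2 scale, or from 0.732 to 1.41-fold. The smallest change that edgeR called in any gene was 0.51 in size on the log2 scale, so changes of the size of the subunits' estimates were not detectable by this test with 2 libraries per group.

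The 3 subunits with the lowest edgeR p were Cbx7, Eed and Suz12, and none of them was called. The 250 bases before the start of each counted transcript are given here for these 3. The order by p served only to choose which windows to show. The sequences were read 5′ to 3′ on the gene's strand from the mm9 genome, with CpG dinucleotides in capitals. The windows lie at chr15:79763077-79763326 on the minus strand for Cbx7, at chr7:97129487-97129736 on the minus strand for Eed and at chr11:79806358-79806607 on the plus strand for Suz12.
Cbx7: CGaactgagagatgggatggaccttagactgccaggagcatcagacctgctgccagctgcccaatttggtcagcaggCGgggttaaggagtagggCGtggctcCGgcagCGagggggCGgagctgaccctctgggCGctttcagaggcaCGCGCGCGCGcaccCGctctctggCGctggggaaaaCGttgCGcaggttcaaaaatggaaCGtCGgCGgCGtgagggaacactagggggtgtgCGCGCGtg
Eed: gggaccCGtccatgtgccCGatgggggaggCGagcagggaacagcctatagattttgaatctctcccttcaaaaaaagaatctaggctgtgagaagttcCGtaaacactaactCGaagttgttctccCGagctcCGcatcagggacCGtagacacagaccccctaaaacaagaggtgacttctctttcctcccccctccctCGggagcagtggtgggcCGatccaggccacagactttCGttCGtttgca
Suz12: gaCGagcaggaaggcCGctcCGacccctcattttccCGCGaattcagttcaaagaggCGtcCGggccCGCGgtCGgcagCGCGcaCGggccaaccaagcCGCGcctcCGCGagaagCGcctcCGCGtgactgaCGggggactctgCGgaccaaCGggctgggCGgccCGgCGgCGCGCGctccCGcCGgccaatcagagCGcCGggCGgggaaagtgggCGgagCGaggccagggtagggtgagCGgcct
The Cbx7 window held 23 CpGs, that of Eed 12 and that of Suz12 37. The median was 9 over 24349 windows of the same length, and all 10 subunits were above it, with Eed the lowest and Suz12 the highest. Letters of the E2F motif (TTTCCCGC or TTTGGCGC, either strand) were found in the Suz12 window and in no other of the 10, against 1.63% of all windows. Letters that occur within the CTCF motif (AGGGGGC or AGGTGGC, either strand) were found for Ezh1, Jarid2, Cbx7 and Pcgf6, against 15.8% of all windows. The ETS letters CCGGAAG were in none of the 10 windows and in 8.79% of all. These letter matches describe the sequence and are not measured binding.

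The subunits differed far more from each other than with dox. In RPKM, that is CPM divided by the exon length in kilobases, averaged over the 4 libraries, the level was 134.9 for Cbx7, 126.4 for Jarid2 and 114.4 for Ezh2, and the ranges of neighbours in this order overlapped. Eed followed at 91.1 RPKM, with a range of 77.3 to 104 RPKM that overlapped neither neighbour. Suz12 at 50.7, Pcgf6 at 45.9 and Mtf2 at 44.8 RPKM formed a second group whose neighbours overlapped. Rnf2 at 25.3, Ezh1 at 12.5 and Ring1 at 7.71 RPKM were each separate from the gene above them. Cbx7 and Jarid2 were thus present at over 10 times the level of Ring1 per length, although all 3 encode parts of Polycomb complexes. The lowest subunit count in any library was 362, for Ring1, and the other 9 genes had at least 1000 counts in each library.

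**Figure D1:**
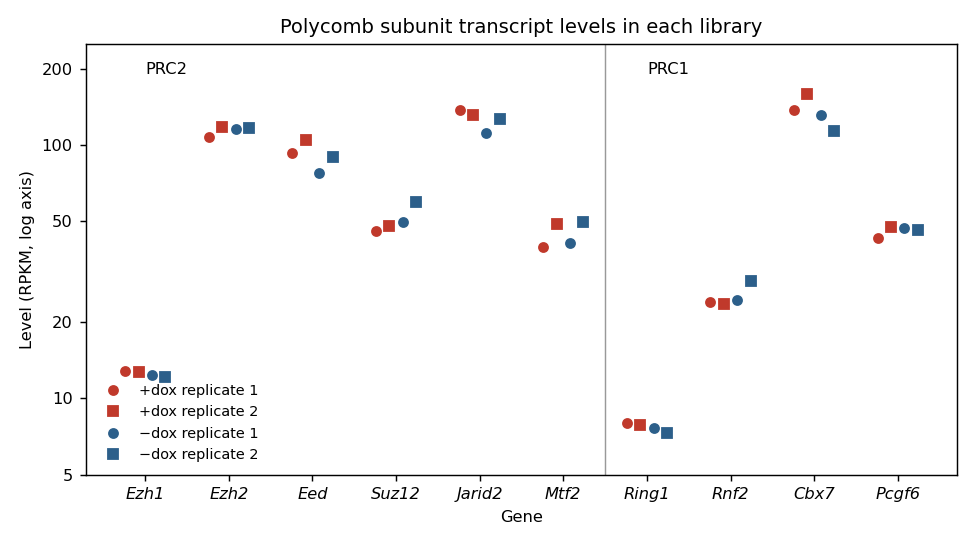
Transcript level in RPKM (y axis, log scale) of each subunit gene (x axis) in the 4 libraries, with red for +dox, blue for −dox, circles for replicate 1 and squares for replicate 2. Genes span from about Ring1, at 7.71 RPKM on average, to Cbx7, at 134.9 RPKM, while the libraries of one gene lie close together.

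Among the PRC2 enzymes, Ezh1 (chr11:101052429-101087777, minus strand) was at 53.7 and 53.3 CPM with dox and at 51.6 and 51.0 CPM without it. The groups did not overlap, but by a margin of a few percent, and the log2 fold change was 0.06 ± 0.11 (SE, n = 2 per group; edgeR adjusted p = 0.817). Ezh2 (chr6:47480273-47545029, minus strand), the main H3K27 methyltransferase of ES cells, was at 283 and 310.1 CPM with dox and at 303 and 307 CPM without it. The +dox libraries lay on either side of the −dox libraries, and the log2 fold change was -0.04 ± 0.09 (SE; edgeR adjusted p = 0.850). Ezh2 made up 89.4% and 90.2% of the combined Ezh1 and Ezh2 RPKM with dox and 90.3% and 90.5% without it. That difference of -0.64 percentage points separated the groups, with an exact two-sided permutation p of 0.333, the smallest that 2 against 2 libraries can give. It was -0.19 points without +dox replicate 1 and -1.08 points without +dox replicate 2.

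Eed (chr7:97103164-97129486, minus strand) binds methylated H3 and thereby stimulates the enzyme. It was at 190.6 and 213 CPM with dox and at 158 and 184 CPM without it. Both +dox libraries were above both −dox libraries, and each +dox library exceeded the −dox library of its own table, by 0.27 in the replicate 1 table and 0.21 in the replicate 2 table on the log2 scale. The fitted log2 fold change was 0.24 ± 0.10 (SE), with a 95% interval of 0.01 to 0.47, an unadjusted p of 0.0385 and an adjusted p of 0.245 in edgeR. Suz12 (chr11:79806608-79847625, plus strand), the scaffold of PRC2, pointed the other way, at 199 and 208 CPM with dox and at 216 and 260.2 CPM without it. Both +dox libraries were below both −dox libraries, and most of the gap came from −dox replicate 2. Its log2 fold change was -0.22 ± 0.10 (SE), with an edgeR p of 0.0502 unadjusted and 0.281 adjusted, and was -0.09 without −dox replicate 2 and -0.35 without −dox replicate 1. Without +dox replicate 1, the library with the high fibroblast marker sum, the log2 fold change of Eed was 0.32 with an edgeR adjusted p of 0.0832. It was 0.14 without −dox replicate 1 and 0.16 without +dox replicate 2, with edgeR adjusted p of 0.672 and 0.6004, and 0.35 without −dox replicate 2 (0.670).

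Jarid2 and Mtf2 are accessory subunits that mark alternative forms of PRC2 and help to bring it to its targets. Jarid2 (chr13:44826640-45017012, plus strand) had the most counts of the 10, at 819.8 and 782 CPM with dox and at 663 and 756 CPM without it. Its groups did not overlap, with a log2 fold change of 0.31 in the replicate 1 table and 0.05 in the replicate 2 table. The fitted value was 0.17 ± 0.09 (SE), with an edgeR adjusted p of 0.344, and was 0.08 without −dox replicate 1 and 0.27 without −dox replicate 2. Mtf2 (chr5:108494693-108538238, plus strand) was at 185 and 229 CPM with dox and at 192 and 234 CPM without it. Mtf2 thus followed the replicate number rather than dox: replicate 2 was 1.23 times replicate 1 with dox and 1.22 times without it. Within a table the +dox library differed from the −dox library by -0.05 and -0.03 on the log2 scale, and the edgeR adjusted p was 0.902. The annotated exons of Mtf2 share 395 bases with those of Tmed5 on the opposite strand, 7.51% of the Mtf2 exon bases, and reads of the pair cannot be told apart unless the counting used strand. Ezh2 and Suz12 share 2.81% and 3.60% of their exon bases with antisense non-coding genes, and the other 7 subunits share none.

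Of the PRC1 ubiquitin ligases, Ring1 (chr17:34157737-34161625, minus strand) was at 16.3 and 15.9 CPM with dox and at 15.6 and 14.8 CPM without it. Its groups were separate by a narrow margin, and its log2 fold change of 0.08 ± 0.17 (SE; edgeR adjusted p = 0.833) had the largest standard error of the 10 subunits. Rnf2 (chr1:153316536-153347953, minus strand), which supplies most of the ligase transcript in these cells, was at 72.4 and 70.9 CPM with dox and at 74.0 and 87.7 CPM without it. The +dox libraries were lower, but −dox replicate 1 was only slightly above them, and the log2 fold change of -0.17 ± 0.11 (SE) had an edgeR adjusted p of 0.476. It was -0.05 without −dox replicate 2 and -0.29 without −dox replicate 1. Rnf2 made up 74.9% and 75.01% of the Ring1 and Rnf2 RPKM with dox and 76.1% and 79.9% without it. The difference of -3.06 percentage points separated the groups at an exact permutation p of 0.333, and was -1.18 points without −dox replicate 2 and -4.95 points without −dox replicate 1.

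Cbx7 (chr15:79746237-79763076, minus strand), the chromodomain subunit of canonical PRC1 in ES cells, had the lowest p of the 10 subunits. It was at 396 and 456 CPM with dox and at 377 and 327 CPM without it. Both +dox libraries were higher, but the log2 difference was 0.07 in the replicate 1 table and 0.48 in the replicate 2 table. The fitted log2 fold change was 0.27 ± 0.10 (SE), or 1.21-fold, with a 95% interval of 0.05 to 0.50, an unadjusted p of 0.0190 and an adjusted p of 0.171 in edgeR. Without +dox replicate 1 the log2 fold change was 0.37 and the edgeR adjusted p was 0.0186, so Cbx7 did not pass the threshold of 0.01 there either. It was 0.38 without −dox replicate 1, 0.17 without +dox replicate 2 and 0.18 without −dox replicate 2, with edgeR adjusted p of 0.550, 0.522 and 0.707. Pcgf6 (chr19:47108109-47125335, minus strand), which marks a variant PRC1 that acts with Mga and L3mbtl2, was at 89.5 and 99.4 CPM with dox and at 98.02 and 96.2 CPM without it. Its groups overlapped, and the log2 fold change was -0.04 ± 0.10 (SE; edgeR adjusted p = 0.868).

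**Figure D2:**
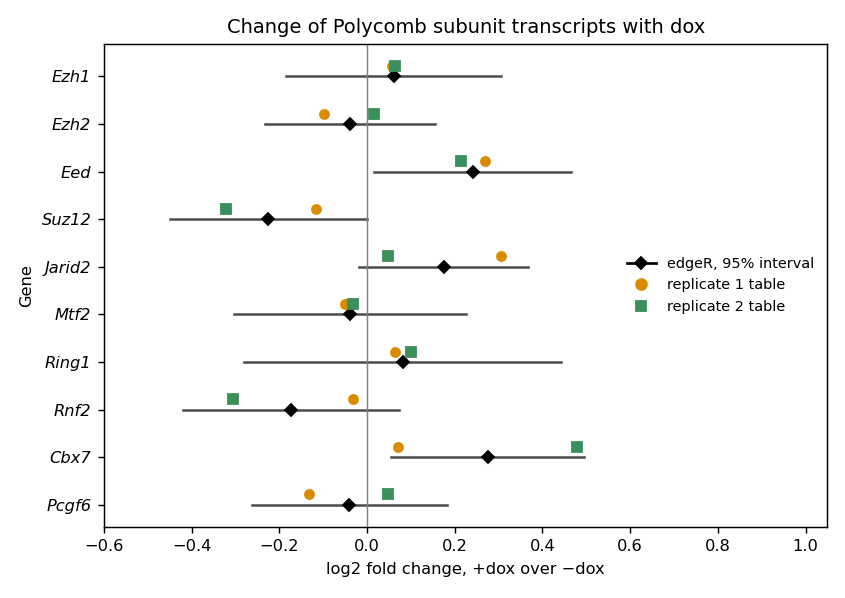
Log2 fold change of +dox over −dox (x axis) for each subunit gene (y axis). Diamonds and lines are the edgeR estimates with their 95% intervals, circles the replicate 1 table alone and squares the replicate 2 table alone. Only the intervals of Eed and Cbx7 lie wholly to one side of 0, and neither passed adjustment over all genes.

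In all, the groups did not overlap for 7 of the 10 subunits, of which Ezh1, Eed, Jarid2, Ring1 and Cbx7 were higher and Suz12 and Rnf2 lower with dox. Groups did not overlap in 47% of all genes tested and in 54.5% of genes with at least 10 CPM, so 7 of 10 is read against those shares. The sign was the same in both tables for 8 subunits and differed for Ezh2 and Pcgf6. Leaving out +dox replicate 1 turned the signs of Ezh2, Mtf2 and Pcgf6, whose log2 fold changes were then 0.02, 0.10 and 0.03.

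Paralogues of the subunits were compared within each library. Mtf2 made up 62.7% and 69.8% of the Phf1, Mtf2 and Phf19 RPKM with dox and 59.7% and 66.0% without it, and the groups overlapped. The shares given here had exact permutation p values of 0.333 or 0.667, so none could pass a threshold of 0.05. Among the 6 Pcgf genes, Pcgf6 held 28.1% and 28.4% with dox and 31.2% in both −dox libraries, a difference of -3.00 percentage points that separated the groups. Pcgf2, which forms the main canonical PRC1 of ES cells with Cbx7, held 48.1% and 51.3% with dox against 43.7% and 43.5% without it. The Pcgf2 share was computed after its values had been seen and is given as a description.

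**Figure D3:**
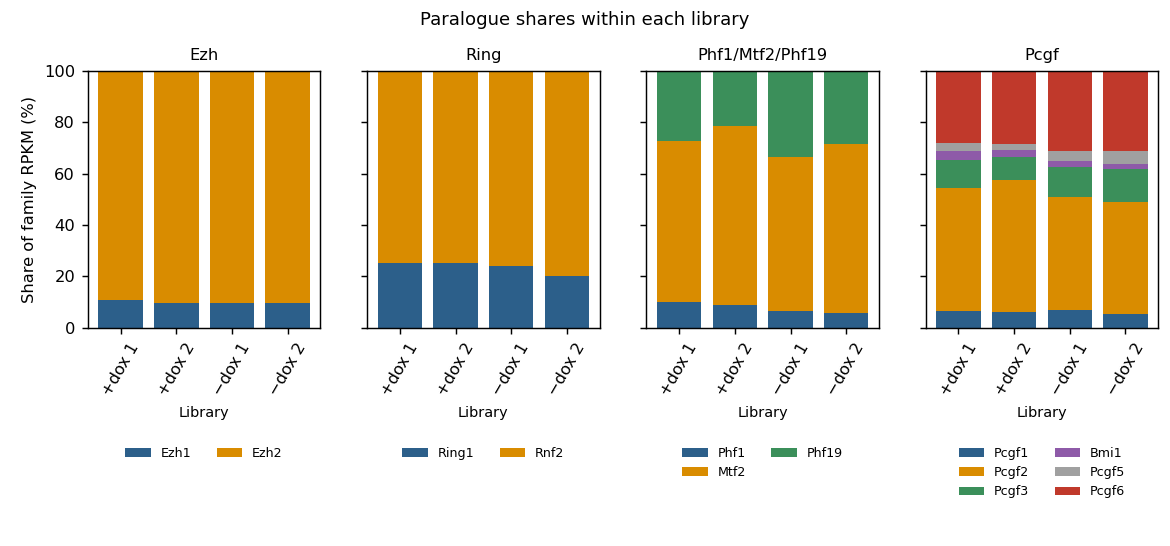
Share of each paralogue in the summed RPKM of its family (y axis, percent) in each library (x axis), as stacked bars. Ezh2, Rnf2 and Mtf2 hold most of their families in every library, and Pcgf2 holds more than Pcgf6.

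No other Polycomb gene was called either. Of 51 further genes of PRC2, PRC1 and their opposing enzymes, edgeR and DESeq2 each called 0 at an adjusted p under 0.01. At an unadjusted edgeR p under 0.05 there were 11, 6 higher and 5 lower with dox, against the 17.8% of all genes given above. The list had 22 genes above 0 and 29 below it, with a median log2 fold change of -0.02 against 0.01 over all genes tested.

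Phf19, an accessory PRC2 subunit that is a paralogue of Mtf2, was at 63.8 and 56.0 CPM with dox and at 85.9 and 79.8 CPM without it. Both +dox libraries were lower, with a log2 fold change of -0.47 ± 0.11 (SE; edgeR adjusted p = 0.0473). E130012A19Rik, the table's symbol for the PRC2 accessory gene Epop, was at 775 and 881 CPM with dox and at 644 and 646 CPM without it, a log2 fold change of 0.36 with an edgeR adjusted p of 0.05002. Cbx8, a PRC1 chromodomain gene, was at 3.69 and 2.80 CPM with dox and at 1.28 and 1.43 CPM without it, a log2 fold change of 1.26 with an edgeR adjusted p of 0.0484. These genes did not pass 0.01. Phf1, at 15.5 and 14.8 CPM with dox and 10.9 and 10.3 CPM without it, was above 0 where its paralogue Phf19 was below it, at 0.52 with an edgeR adjusted p of 0.142.

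Within the PCGF group, Bmi1 had a log2 fold change of 0.61 (edgeR adjusted p = 0.0789), Pcgf2 of 0.29 (0.135) and Pcgf5 of -0.60 (0.155), and none passed. Of the paralogues of Cbx7, Cbx6 had a log2 fold change of 0.13 (edgeR adjusted p = 0.608) and Cbx2 of -0.08 (0.735). The 16 accessory genes of variant PRC1 held 0 with an unadjusted edgeR p under 0.05, against 17.8% of all genes. Their log2 fold changes ran from -0.22 to 0.18. The 9 opposing enzymes remove the methyl or ubiquitin marks or help to do so. At an unadjusted edgeR p under 0.05 they held 1, against the same 17.8%: Asxl2, at -0.26 with an adjusted p of 0.175. The H3K27 demethylases Kdm6a and Kdm6b had log2 fold changes of -0.03 and 0.19.

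COMPASS and Trithorax proteins methylate histone H3 at active promoters and oppose Polycomb silencing. The list of 14 genes also holds Kdm5b, which removes methyl groups from histone H3 and had a log2 fold change of -0.12 (edgeR adjusted p = 0.512). None of the 14 genes passed in edgeR, and the median log2 fold change was 0.05. At an unadjusted edgeR p under 0.05 there were 3, against 17.8% of all genes. Setd1b, a methyltransferase of COMPASS, was at 123 and 119.9 CPM with dox and at 89.1 and 76.1 CPM without it. Both +dox libraries were higher, with a log2 fold change of 0.56 ± 0.11 (SE), an edgeR adjusted p of 0.0203 and a DESeq2 adjusted p of 0.000783 that passed the threshold. Cxxc1, the CpG-binding partner of Setd1b, had a log2 fold change of 0.35 with an edgeR adjusted p of 0.0764.

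Known targets of Polycomb in ES cells did hold called genes. Of 44 such developmental regulators, 8 passed in edgeR, 2 higher and 6 lower with dox, against 0.0798% of all genes called higher and 0.519% called lower. When the list was made, T, Eomes, Lhx1, Pax6 and Nkx2-9 were already known to change in these data. The count of called targets is therefore a description and no test of Polycomb targets against other genes. DESeq2 called 10 of the 44, 2 higher and 8 lower. The lower genes were T (Brachyury), Eomes, Lhx1, Foxa2, Sox17 and Gata6, regulators of mesoderm and endoderm, and the higher genes were Pax6 and Nkx2-9, which act in the neural tube. T was at 5.73 and 7.18 CPM with dox and at 46.3 and 66.7 CPM without it, and Lhx1 was at 1.11 and 0.876 CPM with dox and at 17.2 and 21.2 CPM without it. Their log2 fold changes were -3.13 ± 0.20 and -4.27 ± 0.25 (SE), the groups were far apart, and +dox was the low group in both tables.

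Gata6, a regulator of primitive endoderm, was at 1.64 and 1.10 CPM with dox and at 5.27 and 6.97 CPM without it, a log2 fold change of -2.16. Sox17, Foxa2 and Eomes had log2 fold changes of -2.57, -2.79 and -1.71. Pax6 was at 26.4 and 34.0 CPM with dox and at 14.5 and 13.9 CPM without it, a log2 fold change of 1.09 ± 0.17 (SE; edgeR adjusted p = 0.00573). Nkx2-9 was at 11.2 and 9.98 CPM with dox and at 3.86 and 3.63 CPM without it, a log2 fold change of 1.50 ± 0.22 (SE; edgeR adjusted p = 0.00395). The called targets lay in both directions, and any link between them and the subunit transcripts was not tested.

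Of the 44 targets, 7 are also on the list of 11 mesendoderm markers, and these include 5 of the 8 called genes; the other 37 held 3 called genes, Gata6, Pax6 and Nkx2-9. The 11 mesendoderm markers were all below 0, 8 of them called lower, and summed to 37.9 and 39.7 CPM with dox against 172 and 204 CPM without it. The 6 neural progenitor markers were all above 0, with 1 called, and summed to 182 and 187 CPM with dox against 170.4 and 131 CPM without it. How far the share of differentiating cells accounts for the target values was not tested. Counted without the call, 29 of the 44 targets were above 0, with a median fitted log2 fold change of 0.60. The median was 0.67 in the replicate 1 table and 0.08 in the replicate 2 table. These per-table values are differences of log2 CPM with a prior count of 2, which draws genes of few reads toward 0. Without +dox replicate 1 the fitted median was 0.18. That of the 16 fibroblast markers was 0.44 there against 1.34 with all libraries, and the part of feeder RNA in the target median was not tested. Most targets called in that setting were lower with dox. Without +dox replicate 2 as many were called higher as lower, so the split differed with the +dox library left out. The median over the 44 targets was 0.45 without +dox replicate 2, 0.35 without −dox replicate 1 and 0.65 without −dox replicate 2. With either −dox library left out, edgeR called no target and no other gene. The list has 30 genes with at least 1 CPM on average, so 14 rest on few reads.

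**Figure D4:**
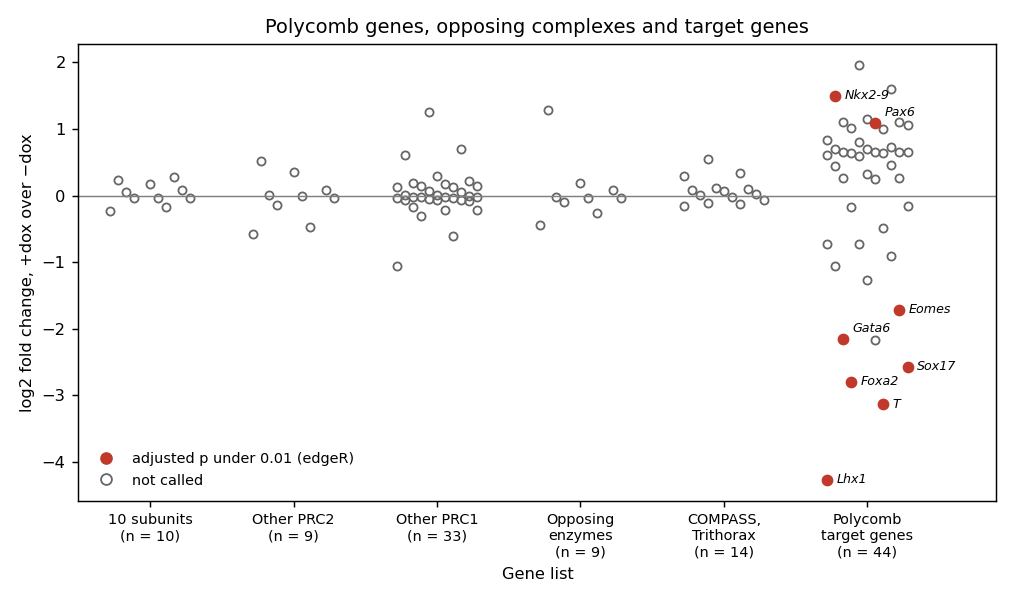
Log2 fold change of +dox over −dox (y axis) for the genes of each list (x axis, with the number of genes). Filled red points passed an adjusted p under 0.01 in edgeR; they are the 8 named Polycomb targets, and no subunit, other Polycomb, opposing or COMPASS gene is among them.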

How the data were processed

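Polyadenylated RNA was sequenced as directional paired-end libraries. The authors deposited whole-number counts of uniquely mapped exon reads per gene from HOMER, made after cutadapt trimming, TopHat2 alignment (mm9) and removal of duplicate reads; versions and the use of strand in counting are not given in the sources used here. The deposited annotation gave exon lengths for RPKM. The 2 tables were joined by gene symbol; for 547 genes they list different transcripts, none of them among the 10 subunits. Genes with at least 1 count in 1 of the 4 libraries were tested with edgeR 4.0.16 (quasi-likelihood, TMM scaling, legacy deviances; limma 3.58.1, R 4.3.3), with groups as the only term, Benjamini-Hochberg adjustment over all genes and a threshold of 0.01. DESeq2 1.42.0, which the authors used, was an alternative. The edgeR step was tested on simulated data with 200 changed genes. It called 0 of them at a log2 change of 0.3 or 0.5, 173 at 1 and 200 at 2. False calls numbered 9 at a change of 1 and 2 at a change of 2. The CPM and RPKM values use TMM-scaled totals. Log2 changes within one table are differences of log2 CPM with a prior count of 2, not edgeR fits. Shares were compared by exact two-sided permutation.

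Named genes were the 10 subunits, the paralogues that enter the shares, every listed gene with an adjusted p under 0.01, the 2 genes with the lowest p of a list without any, and Ctcf; the Pcgf2 share, Epop, Asxl2, Kdm6a, Kdm6b and the other genes outside this rule were named after their values were seen. The members and lists were chosen with earlier results of these data known. Replicates of one condition differed beyond sampling noise, with chi-square per degree of freedom of 19.2 with dox and 13.2 without it. Other assays of the series were not used here, and some results are not reported here. Intervals cover the spread between 2 cultures of one clone.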

Additional observations from a re-analysis of the deposited data

How the results depend on the processing

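The count of 0 called subunits was the same under every alternative computed (DESeq2, the edgeR likelihood ratio test, adjusted deviances, the replicate block, DESeq2 size factors, total counts, filterByExpr, a threshold of 0.05, only genes whose transcript is identical between tables, and each library left out). With adjusted deviances, or with either −dox library left out, no gene of all those tested passed, so the subunit result was fixed there. Changes of the subunits' size were not detectable in the main test either, so an unchanged side of the threshold says little about stability. Over 120 values of the 10 log2 fold changes under 12 alternatives, 116 kept direction and side of the threshold. The other 4 turned sign when 1 library was left out: Ezh2 ran from -0.11 to 0.0231 (highest without +dox replicate 1), Pcgf6 from -0.12 to 0.0320 (likewise), and Mtf2 from -0.20 to 0.11 (above 0 without +dox replicate 1 or −dox replicate 2).

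Counts over all genes depended on the setting far more. Against 120 called, DESeq2 gave 375, the likelihood ratio test 457, filterByExpr 11 and a threshold of 0.05 gave 573. Adjusted deviances gave 0, with 3254 genes at an unadjusted p under 0.05. Leaving out 1 library gave from 0 (either −dox library) to 992 (+dox replicate 1). Of the other Polycomb genes, 2 passed at a threshold of 0.05, and leaving out 1 library gave 0 to 2. Of the COMPASS and Trithorax genes, 1, Setd1b, passed with DESeq2, with the likelihood ratio test and at a threshold of 0.05, and leaving out 1 library gave 0 to 1. Of the targets, 8 in the report, adjusted deviances called 0 (20 at an unadjusted p under 0.05), filterByExpr 3, and leaving out 1 library 0 to 18. The Mtf2 share difference was between -0.21 and 6.89 percentage points when 1 library was left out, and was -0.21 without +dox replicate 2. The cause of these shifts was not tested.

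Equal replicate numbers were not taken as pairs, since nothing in the labels ties them to a shared batch and there are only 2; the deviations of same-numbered libraries correlated at 0.196 across 13911 genes. With the replicate block 786 genes were called in all, 0 of the 10 subunits (lowest adjusted p 0.0489, Cbx7), 3 other Polycomb genes (Cbx8, E130012A19Rik and Phf19), 1 COMPASS gene (Setd1b) and 13 targets. The largest standard error of a subunit, 0.17, was that of Ring1, which had the fewest counts.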
